A study of Mus musculus with 8 samples.

Results

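The peaks described here are the m6A peaks of coding sequence that run across at least 2 exon junctions, called multi-junction coding peaks below. They were taken from the authors' peak lists of mouse primary hepatic stellate cells by 3 criteria: the annotation class was coding sequence (CDS), the gene was protein-coding, and the peak was written as 3 or more exon blocks. An exon block is an uninterrupted stretch of genome, and the gaps between the blocks of a peak are the junctions it spans. The control list held 694 such peaks among 8397 (8.26%, 95% interval 7.68 to 8.87), and the knockout list held 1286 among 6709 (19.2%, 18.2 to 20.1). Together they make 1980 peaks of 15106.

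Stellate cells were isolated from C57BL/6J mice and cultured for 7 days, during which they activate without further treatment. The control mice were labelled WT, and the others carried a stellate cell-specific knockout of Mettl3, named cKO in the sample titles. The labels give neither the driver of the deletion, the age of the mice nor the number of animals behind a library. For each genotype there were 2 libraries of RNA precipitated with an antibody against m6A and 2 of input RNA, from 100 µg of total RNA broken into fragments of 100 to 200 nucleotides (nt). Each peak list stands for all libraries of a genotype, so no value has a replicate error and no difference between the genotypes was tested. Intervals of shares are exact Clopper-Pearson intervals and cover counting error only.

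N6-methyladenosine (m6A) is written on nascent mRNA by a complex whose catalytic subunit is METTL3. In most tissues it is concentrated in long internal exons and around the stop codon and is sparse in short exons flanked by junctions. Proteins of the exon junction complex, which coat spliced mRNA near junctions, are known to keep the methyltransferase away from such places. Coding peaks over several short exons therefore lie in the kind of sequence where the mark is usually thin.

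Read depth is unknown, because the lists hold no counts. All positions are on the mm10 build. A called peak needs reads of the transcript as well as enrichment, so a thinner mark and a scarcer transcript cannot be told apart here, nor can fewer cells of a type and less RNA per cell. Of 12 markers of stellate cells, 11 had a peak of any class in each list and all 12 in 1 list or the other. None of 6 hepatocyte markers had a peak in either list. Endothelial markers with a peak numbered 4 of 6 in the control list (Cdh5, Kdr, Lyve1 and Pecam1) and 3 in the cKO list, macrophage markers 1 of 6 in each, and bile duct markers 0 of 5 and 1 of 5. The part of such cells in the results was not tested.

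Sequence was at hand for a few blocks only, those that lie whole inside a RefSeq window around an annotated transcript start (GRCm38.p6). These windows held 15 different blocks of multi-junction coding peaks. The 4 blocks shown are those of at least 50 nt that lay in the window of another RefSeq gene on the same strand, in genes with established names, with at least 1 reading frame free of stop codons. They are shown as examples of exon blocks of such peaks, in mRNA sense from 5′ to 3′. The blocks of Egln1 and Gspt1 lie at the 5′ end of their peaks and may hold only part of an exon. Those of Son and Hnrnpd have a junction on either side. Capitals mark the m6A consensus, which was searched on the transcribed strand alone as GGAC or AGAC or TGAC, and as GAAC or AAAC or TAAC, each with any following base but G.
Egln1, control list, chr8:124948233-124948366, minus strand: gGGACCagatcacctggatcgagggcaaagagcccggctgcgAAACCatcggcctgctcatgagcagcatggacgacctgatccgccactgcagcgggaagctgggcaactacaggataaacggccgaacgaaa
Gspt1, cKO list, chr16:11253643-11253823, minus strand: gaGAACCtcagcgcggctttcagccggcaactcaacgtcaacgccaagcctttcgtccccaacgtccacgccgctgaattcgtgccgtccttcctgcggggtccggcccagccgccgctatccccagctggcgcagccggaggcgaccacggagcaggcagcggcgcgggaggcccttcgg
Son, cKO list, chr16:91651630-91651796, plus strand: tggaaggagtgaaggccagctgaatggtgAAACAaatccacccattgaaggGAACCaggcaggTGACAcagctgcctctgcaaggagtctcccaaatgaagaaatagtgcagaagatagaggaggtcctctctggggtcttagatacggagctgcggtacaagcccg
Hnrnpd, cKO list, chr5:99976534-99976590, minus strand: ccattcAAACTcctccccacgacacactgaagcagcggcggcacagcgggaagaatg

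Egln1 encodes the prolyl hydroxylase that marks HIF-1α for degradation. Its peak had 5 blocks and a fold enrichment of 49.9, and the cKO list held no overlapping peak. The 134-nt block, the most 5′ of the peak, held 2 consensus matches. The blocks of Gspt1, a translation termination factor (peak of 4 blocks, fold 8.31), of the splicing cofactor Son (3 blocks, fold 10.0) and of the RNA-binding protein Hnrnpd (3 blocks, fold 2.3) held 1, 3 and 1. Of all 32851 windows, 86.5% held a match in the stretch that corresponds to the Egln1 block, 93.1% in that of Gspt1, 90.9% in that of Son and 57.2% in that of Hnrnpd, so a match in these blocks sets none of them apart. The same windows showed the bases at some gap ends. At all 18 junctions of coding peaks with 2 or more blocks whose 5′ end lay in a window, the gap began with GT, the start of an intron. Of 24 gap ends in a window, 10 read AG, the end of an intron, and the other 14 did not. The next block began at an annotated transcript start in 3 of the 10 and in 9 of the 14. The windows lie around such starts, and why some gaps lack AG was not tested.

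Multi-junction peaks made up a larger part of coding peaks in the knockout cells than in control cells. They were 15.6% of the 4447 control coding peaks (14.6 to 16.7) and 35.9% of the 3585 cKO coding peaks (34.3 to 37.5). The cKO list had fewer coding peaks inside a single exon, 1112 against 2628, and nearly the same number across 1 junction, 1187 against 1125. It had more of every larger kind, with 747 against 475 peaks of 3 blocks, 301 against 138 of 4, 125 against 55 of 5, and 113 against 26 of 6 or more. The highest number of blocks was 8 in control and 18 in cKO. A stricter list gave the same order, since among peaks with a p-value of at most 1e-10 the shares were 20.7% and 50.9%.

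**Figure D1:**
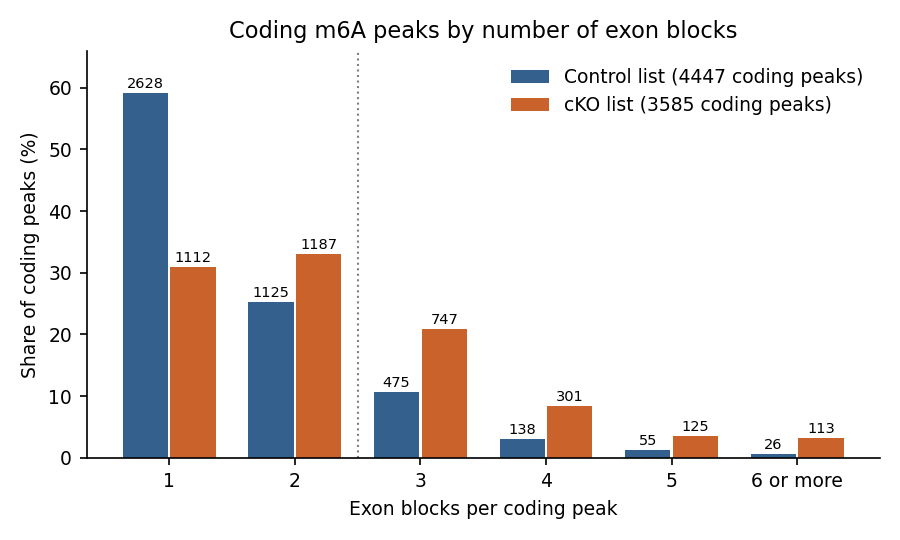
Share of coding peaks (%) by number of exon blocks in the control and the cKO list, with the number of peaks above each bar; the dotted line separates multi-junction peaks (to its right) from the rest. Control peaks lie mostly in 1 block (2628 of 4447), whereas cKO bars are higher from 2 blocks upward.

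Peak widths were similar in the lists. Exonic width had a median of 297 nt in control (quartiles 210 and 421) and 301 nt in cKO (227 and 449), and it ranged from 119 to 2370 nt and from 120 to 2033 nt. Within every width class the multi-junction share was higher in the cKO list. It was 8.91% against 15.3% for coding peaks of up to 200 nt, 17.1% against 38% from 201 to 300 nt, 21.7% against 56.2% from 301 to 500 nt, and 22.7% (19.3 to 26.4) against 67.8% (62.7 to 72.6) from 501 nt upward. Wide coding peaks of the control list thus lay mostly in 1 or 2 exon blocks, and wide coding peaks of the cKO list mostly did not.

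Inner blocks, which have a junction on either side, had a median length of 104 nt in control (1033 blocks, quartiles 75 and 138) and 107 nt in cKO (2300 blocks, 78 and 143). Each lies whole inside its peak, so the choice of peaks by block number partly fixes a short length. Lengths of other exons were not at hand for comparison. Lengths divisible by 3, which keep the reading frame when an exon is skipped, were found for 40.9% (37.9 to 44.0) and 41.1% (39.1 to 43.1) of inner blocks and for 35.2% and 31.8% of outer blocks. Outer blocks are cut where the peak ends and had medians of 56 and 60 nt. An outer block under 10 nt was present in 124 control peaks (17.9%) and 193 cKO peaks (15%), so these touched an end exon by a few bases only. Gaps had a median of 1302 nt in the control and 1246 nt in the cKO list, and gaps under 30 nt, too short for an intron, numbered 5 of 1727 and 10 of 3586. From outer end to outer end the peaks covered a median of 4563 and 4822 nt of genome. The widest span was 158538 nt in Nsmce2, a SUMO ligase gene, in the control list, and 184312 nt in Ccbe1 in the cKO list.

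By fold enrichment, multi-junction coding peaks stood higher within the cKO list than within the control list. The column is the authors' own and is taken as precipitated over input RNA, computed within each genotype, so folds are compared by rank within a list. The median fold was 21.0 in control (quartiles 10.9 and 51.9, range 1.57 to 2630) and 19.6 in cKO (10.6 and 44.9, range 1.7 to 1020). Among all peaks of its list the median multi-junction coding peak stood at percentile 53.2 in control and 65.6 in cKO. Coding peaks of 1 and of 2 blocks stood at percentiles 53.0 and 46.8 in control and both at 43.7 in cKO. Rank went up with the number of blocks, from percentile 48.6 for 3 blocks to 76.3 for 6 or more in control, and from 59.4 to 88.9 in cKO. The median log10 of the p-value went from -12.6 to -187 in control and from -11.5 to -113 in cKO over the same steps. Median exonic width rose as well, from 241 to 600 nt in control and from 267 to 660 nt in cKO. The part of width in these orders was not tested. Folds of 100 or more were found in 90 control peaks (13%) and 120 cKO peaks (9.33%), beside 12.8% and 2.97% of coding peaks of 1 block.

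Control multi-junction peaks were met by a cKO peak more often than other control coding peaks, and for cKO peaks the pattern had a different shape. A counterpart is a peak of the other list that shares at least 1 exonic nt on the same strand. In the control list 491 of the 694 peaks had one (70.7%, 67.2 to 74.1), beside 33.7% of all control peaks and 38.3% of all control coding peaks. The share climbed with each block, from 26.3% (24.7 to 28.1) for 1 block and 46.4% (43.5 to 49.4) for 2 to 66.5%, 74.6%, 85.5% and 96.2% for 3, 4, 5 and 6 or more. In the cKO list 598 of 1286 had a control counterpart (46.5%, 43.7 to 49.3), beside 41.8% of all cKO peaks and 46.8% of cKO coding peaks. There the share was highest at the ends, at 62.5% (59.6 to 65.4) for 1 block, 32.4% for 2, 35.6% for 3, 49.5% for 4, 69.6% for 5 and 85.0% (77.0 to 91.0) for 6 or more. Peaks of more blocks were also wider, with medians of 241, 330, 419 and 600 nt for 3, 4, 5 and 6 or more blocks in control and 267, 358, 477 and 660 nt in cKO. By width, from peaks of up to 200 nt to those of 501 nt upward, the share of multi-junction peaks with a counterpart was 45.7%, 73.8%, 82% and 78.1% in control and 11.3%, 30%, 60.6% and 82.2% in cKO, and the part of width in the order by blocks was not tested.

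**Figure D2:**
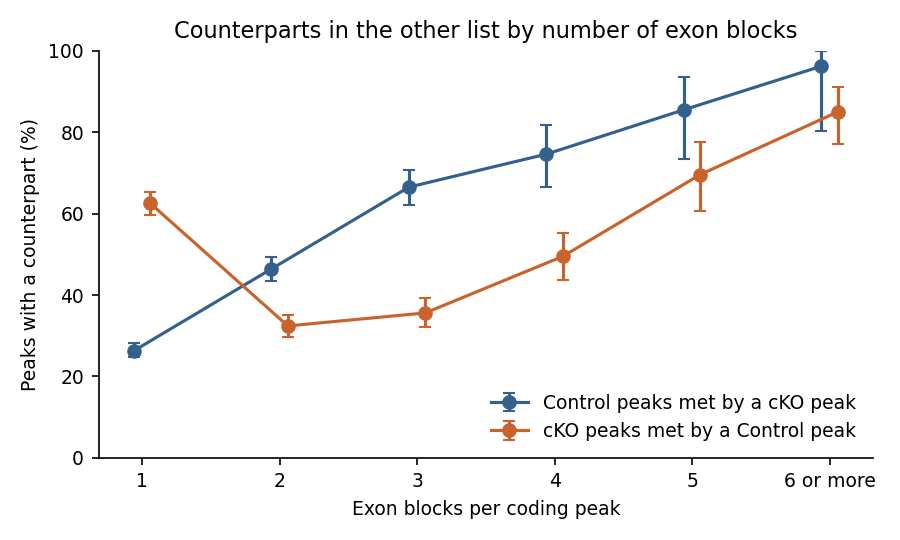
Share of coding peaks (%) with an overlapping peak in the other list, by number of exon blocks; points are shares, bars are exact 95% intervals for counting error. Control peaks climb from 26.3% to 96.2%, while cKO peaks drop from 62.5% at 1 block to 32.4% at 2 and reach 85.0% at 6 or more.

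Within the control list, multi-junction peaks had the higher share with a counterpart at every level of enrichment. With control coding peaks divided into quartiles of fold, multi-junction peaks had a counterpart in 62.6%, 64.5%, 72.0% and 82.6% of cases from the lowest quartile to the highest, and 1-block peaks in 14.8%, 16.9%, 26.7% and 46.2%. In the cKO list multi-junction peaks had one in 30.2%, 29.6%, 41.1% and 66.3%, and 1-block peaks in 56.1%, 54.5%, 67.3% and 78.3%. Requiring that the counterpart be a multi-junction coding peak itself left 397 control peaks (57.2%, 53.4 to 60.9) and 387 cKO peaks (30.1%, 27.6 to 32.7). These counts are close, and the shares differ through the numbers of peaks in the lists. The counterpart that shared most bases had 3 or more blocks for 414 of 491 control peaks and 399 of 598 cKO peaks, and it was annotated as coding sequence for 94.1% and 96.0%.

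Peaks without a counterpart were looked up by gene for other peaks. Of the 203 control peaks without one, 112 (55.2%) were in a gene with some cKO peak, and of the 688 cKO peaks without one, 402 (58.4%) were in a gene with some control peak. Over all genes, 56.1% of those with a control peak had a cKO peak and 65.1% of those with a cKO peak had a control peak. These shares count genes, not peaks, and include genes whose peaks overlap, so they are not a like measure. At gene level, 600 genes carried a multi-junction coding peak in control and 1053 in cKO. Of these 384 did so in both lists, which is 64.0% of the control genes and 36.5% of the cKO genes, and 344 of the 384 had peaks that overlapped. The 669 genes with such a peak in the cKO list alone included 288 with a control coding peak of 1 or 2 blocks and 266 with no control peak at all. The 216 genes of the control list alone included 78 with a cKO coding peak of 1 or 2 blocks and 93 with no cKO peak.

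Where multi-junction peaks of the lists overlapped, they mostly shared a junction, and the cKO peak was more often the longer. Of 407 overlapping pairs, 399 shared at least 1 junction to the base and 160 had identical sets of junctions. Both peaks of a pair were chosen to span several junctions and to share bases, which partly fixes a shared junction. The cKO peak had more blocks in 196 pairs, the control peak in 32, and 179 were equal. Median exonic width in the pairs was 301 nt in control and 421 nt in cKO, with 283 pairs wider in cKO and 88 wider in control. In rank, 291 pairs stood at a higher fold percentile in cKO and 116 at a higher one in control (medians 81.9 and 59.5). Counted by junction, 979 of the 1719 junctions under control multi-junction peaks (57.0%, 54.6 to 59.3) were also under a cKO one, and the same 979 made up 27.4% (25.9 to 28.8) of the 3579 junctions in the cKO list.

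The 6 pairs that ranked highest in both lists show how the peaks relate. Ppig, which encodes a nuclear cyclophilin, had a control peak of 4 blocks (fold 684) inside a cKO peak of 6 blocks (fold 914, chr2:69736147-69750476), and the cKO peak added 2 exons at the 5′ side. Nexn encodes nexilin, an actin filament-binding protein. Its 3 control peaks of 6, 5 and 3 blocks had folds of 1170, 147 and 121, and a cKO peak of 10 blocks (fold 163, chr3:152237849-152252701) covered most of the length of the first 2. The third was met by a cKO peak of 3 blocks (fold 68). Sec62, a component of the endoplasmic reticulum translocation machinery, was the exception among the 6 and had the shorter peak in cKO, with 6 blocks at fold 463 in control and 5 at fold 423 in cKO. Ccar1, a transcriptional coactivator of cell cycle genes, had 5 blocks at fold 391 and 7 at fold 541.

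The kinase genes Rock1 and Rock2, whose products drive actomyosin contraction, were both among these 6 pairs. In Rock1 the control list held peaks of 5 blocks (fold 423) and 7 blocks (fold 145), and in the cKO list a single peak of 16 blocks and 2033 nt (fold 1020) covered both and the exons between them. In Rock2 control peaks of 5, 7 and 4 blocks had folds of 729, 35.0 and 5.56, and cKO peaks of 9, 6 and 6 blocks at the same places had folds of 160, 25.4 and 8.78. A further Rock2 peak of 4 blocks at fold 94.5 lay upstream in the cKO list, with no control counterpart. The order of the Rock2 peaks by fold was thus the same in both lists, while Rock1 stood at rank 3 of the cKO list and at ranks 156 and 645 of the control list.

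**Figure D3:**
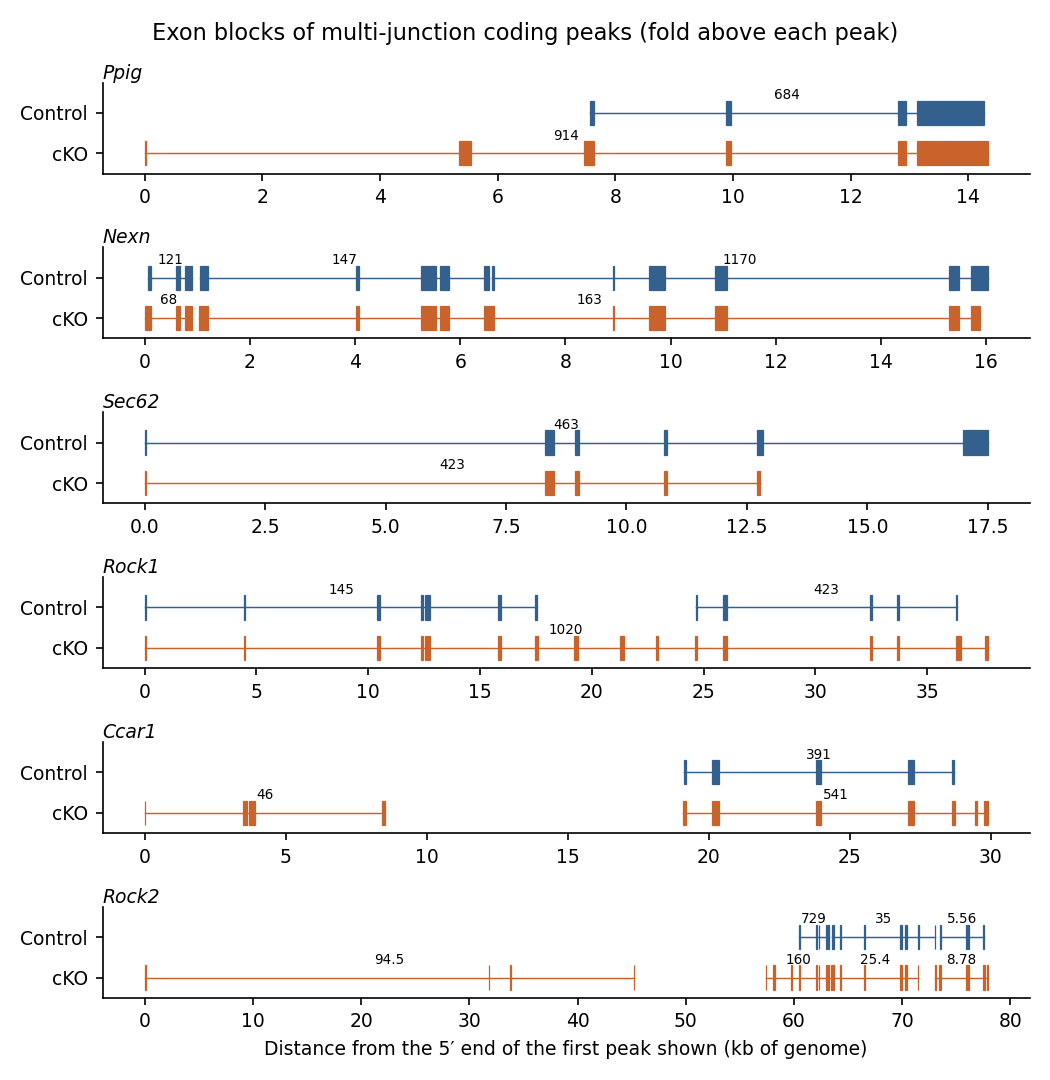
Exon blocks (boxes) and gaps (lines) of the multi-junction coding peaks of the 6 genes named, control above and cKO below, against distance in kb of genome from the 5′ end of the first peak shown; numbers are fold enrichments. In Rock1 the cKO peak of fold 1020 spans the place of the 2 control peaks of fold 423 and 145, and in Sec62 the control peak has the additional 3′ block.

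Peaks that met 2 or more peaks of the other list were a minority, and 1 shared nt was enough to count. Of cKO multi-junction peaks 62 (4.82%, 3.72 to 6.14) overlapped 2 or more control peaks, and of control ones 30 (4.32%, 2.94 to 6.11) overlapped 2 or more cKO peaks. In Arid5b, a DNA-binding chromatin factor, a cKO peak of 8 blocks (fold 135) met control peaks of 1, 4 and 3 blocks with folds of 128, 29.4 and 36.2. The reverse was seen in Rock2, where the control peak of 7 blocks met 3 cKO peaks, and in Akap2, which anchors protein kinase A.

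The longest chains of exons were in the cKO list. Ik, which encodes a spliceosome-associated protein, had a cKO peak of 18 blocks and 1728 nt (fold 143), beside a control peak of 4 blocks (fold 17.3). Aebp1 encodes a collagen-binding matrix protein, and its cKO peak of 11 blocks (fold 107, chr11:5862365-5867865) covered the places of control peaks of 4 and 5 blocks (fold 21.1 and 17.7). A further control peak of Aebp1, of 4 blocks at fold 21.7, lay on the 3′ side and had no cKO counterpart. Mia3, needed for the export of collagen from the endoplasmic reticulum, had cKO peaks of 11 and 6 blocks (fold 32.9 and 153), where control had 5 and 3 (fold 16.1 and 11.7). The control peaks with most blocks were in Set, a histone chaperone gene (8 blocks, fold 102), in the initiation factor genes Eif3a (8 blocks, fold 30.9) and Eif5b (7 blocks, fold 156), in the Arf GTPase-activating protein gene Smap1 (7 blocks, fold 666) and in Smarcc1, a subunit of SWI/SNF remodellers (7 blocks, fold 203). All 5 of these had a cKO counterpart, with 2 peaks of 3 blocks in Set (fold 286 and 2.94), 8 blocks in Eif3a (25.9), 8 in Eif5b (158), 10 in Smap1 (36) and 9 in Smarcc1 (43.0).

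Among multi-junction coding peaks, the highest folds of the control list lay at a place listed under both Pakap and Akap2 (fold 2630 and 2410), whose 4-block peaks differ slightly at their ends and are 1 place. Next came Fat1, a giant cadherin (fold 1990, 3 blocks), then Nexn, and below it Rock2, Ppig and Smap1. Each of these had a cKO counterpart, of fold 20.2 at the Akap2 place and, with 2 blocks, of fold 8 in Fat1. The leading cKO peaks after Rock1 included those in Ppig, the ribosome biogenesis factor Nsa2 (fold 798, 3 blocks), Smarcc1 (fold 737, 5 blocks), the small GTPase Rab8b (fold 608, 5 blocks), Ccar1 and the zinc finger gene Zc3h15 (fold 447, 8 blocks). Their control counterparts had folds of 29.0 in Nsa2 (of the 5′ UTR class), 44.3 in Smarcc1, 182 in Rab8b and 35.0 in Zc3h15. Every leading peak named had a counterpart. These peaks were chosen for a high fold in 1 list, so a lower fold in the other list is partly fixed by that choice. Of the 407 pairs, 56 had a fold of 100 or more in control, 79 in cKO and 19 in both.

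**Figure D4:**
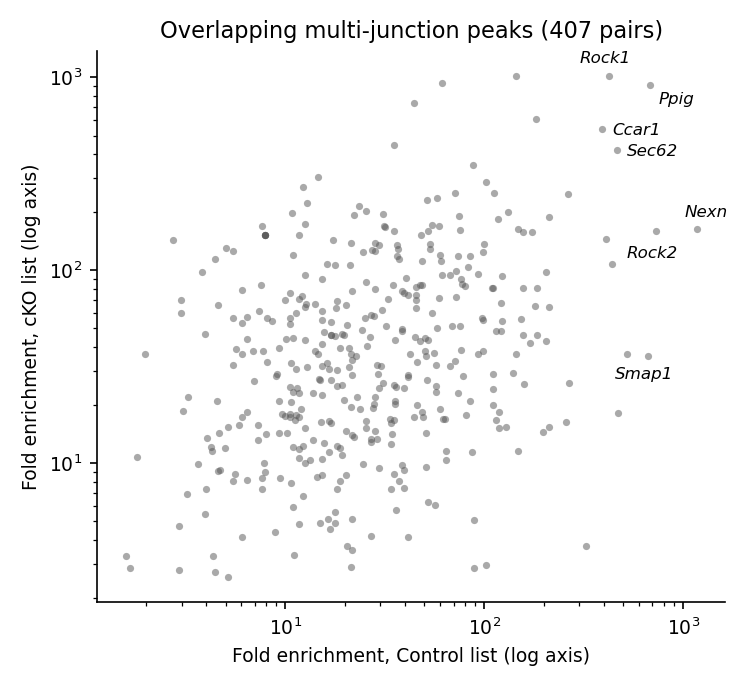
Fold enrichment of the 407 overlapping pairs of multi-junction coding peaks, control on the x axis and cKO on the y axis, both logarithmic; each point is a pair and a peak may enter several. Of the points, 19 have a fold of at least 100 on both axes, among them Ppig, Rock1, Sec62, Ccar1, Nexn and Rock2, while Smap1 lies high on the control axis alone.

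Several genes carried a series of such peaks. At least 2 were found in 82 control genes and 183 cKO genes, and at least 3 in 10 and 37. Tpr, a filament protein of the nuclear pore basket, had 4 in control (folds 12.5, 58.6, 170 and 9.26 from 5′ to 3′) and 6 in cKO (26.1, 64.3, 41.9, 20.6, 7.47 and 19.7). Asap1, an Arf GTPase-activating protein of focal adhesions, had 5 in cKO, the longest of 10 blocks at fold 78.0. Phldb2, which ties microtubules to the cell cortex, also had 5, with folds from 6.25 to 66.6. The Hippo kinase gene Lats2 had 4 in control (folds 113, 184, 157 and 109), counted under 2 gene identifiers that share bases, and the peak of fold 113 had no cKO counterpart.

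Within genes, multi-junction peaks lay toward the 3′ side, less so than coding peaks of 1 or 2 blocks. Of the peaks, 685 control and 1270 cKO ones were matched to a RefSeq gene of the GRCm38.p6 assembly. On a scale of genomic gene length, from 0% at the 5′ end to 100% at the 3′ end, the median position was 67.7% in control and 63.1% in cKO. It was 73.2% and 69.8% for 1-block and 72.9% and 65% for 2-block coding peaks. The 5′-most 25% of the gene held 8.91% of control and 13% of cKO multi-junction peaks, beside 14% and 18.4% of 1-block peaks. The 3′-most 25% held 40.6% and 35.3%, beside 48.2% and 44.1% of 1-block peaks, so fewer lay at either end. Their genes were longer in the median, at 50.1 and 51.1 kb against 43.7 and 37.9 kb for genes under 1-block peaks. For genes under 2-block peaks the medians were 47.9 and 40.8 kb. The upper quartile was lower than for 1-block peaks in control, 93.3 against 97.2 kb, but not in cKO. A multi-junction peak needs a gene of at least 3 exons, so the choice of peaks may partly fix gene length and the fewer peaks at the ends. A 1-block coding peak was present as well in 23.7% of the 600 control genes and 14.7% of the 1053 cKO genes, beside 72.5% and 49.9% of genes whose coding peaks had fewer blocks, a difference that the choice of peaks by block number partly fixes. A 3′ UTR peak was present in 27.0% (23.5 to 30.7) and 17.5% (15.2 to 19.9), beside 24.2% (22.4 to 26) and 20.1% (18 to 22.3) of genes whose coding peaks had fewer blocks.

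Gene groups were described by how many of their genes with a coding peak carried a multi-junction one. Over all genes this was 21.7% in control (600 of 2768) and 42.9% in cKO (1053 of 2453). Both shares depend on the exons of a gene, which were not modelled, so counts are given beside that background and without a test. A gene said to be in control alone or in cKO alone lacks a multi-junction coding peak under its symbol in the other list. A peak of another kind can lie at the same site there.

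Genes of the contractile cytoskeleton, which stellate cells use to contract as myofibroblasts, carried these peaks in 9 of 26 cases in control (34.6%) and 19 of 25 in cKO (76.0%). All 9 control genes were among the 19. They included the actomyosin regulator gene Cald1 (fold 10.0 with 3 blocks in control, 70.1 with 7 in cKO) and Tpm4 (54.7 and 59.9). Radixin, encoded by Rdx, ties actin to the membrane and had 4 blocks at fold 6.04 in control and 7 at fold 53.3 in cKO. In the cKO list alone were 10 genes, led by the tropomyosin gene Tpm1 (fold 399) and the myosin light chain gene Myl9 (93.8), and they included Actn1, Actn4, Myh10 and Des. Nonmuscle myosin Myh9 had 1 peak in control (fold 3.64) and 3 in cKO (10.3, 9.11 and 9.91). Giant linkers, tubulins and microtubule motors gave 9 of 27 in control and 15 of 22 in cKO. In Dst the best peak had 3 blocks at fold 47.9 in control and 5 at fold 153 in cKO, and the kinesin gene Kif5b had 5 in each at fold 147 and 11.6. The dynactin gene Dctn1 had 8 blocks at fold 154 in cKO, and Sptbn1 (68.6) and Dmd (8.45) were in control alone.

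Matrix genes encode products of activated stellate cells. Fibrillar collagens are built from many short exons, and Col3a1 had 3 blocks at fold 2.92 in control and 9 at fold 4.69 in cKO, at percentiles 1.5 and 8.8 of fold in their lists. Col5a1 had one in cKO alone (43.8), making 1 of 2 and 2 of 2 fibrillar collagens. Other collagens had 0 of 5 in control and 3 of 5 in cKO, where Col4a5 (4.98) and Col4a1 (3.37) were low in rank. Matrix glycoproteins and proteoglycans had 3 of 19 and 7 of 20. Perlecan, encoded by Hspg2, had one in each list at separate sites (8.86 and 27.6). Efemp1 (116) and Fbln2 (14.8) were in control alone, and the laminin gene Lama1 (18.8) and the fibronectin gene Fn1 (16.5) in cKO alone. The Efemp1 peak was met by a cKO peak of the 5′ UTR class at fold 502. Matrix processing genes had 2 of 10 and 6 of 12. The collagen hydroxylase gene P4ha1 had fold 6.01 and 78.7 at overlapping sites, and Timp1, an inhibitor of matrix proteases (62.9), and Mmp2 (10.3) were in cKO alone. Adhesion receptors had 2 of 10 and 4 of 11, with Fat1 and Cd44 (19.8) in control alone and Itgb1 (113) and Cdh2 (21.1) among those in cKO alone.

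RNA-processing and chromatin genes held many of these peaks in both genotypes. Splicing factors had 13 of 31 in control (41.9%) and 22 of 32 in cKO (68.8%), 8 of them in both. Rbm39 had the same 3 blocks in each list (fold 204 and 97.8), Snrpd2 (344) and Hnrnpk (315) were in control alone, and Luc7l2 (171) and Srsf10 (58.1) in cKO alone. The Snrpd2 peak was met by a cKO peak that the authors classed as other exon (fold 121), so the class and not the site set it apart. Chromatin regulators had 24 of 56 (42.9%) and 37 of 56 (66.1%), 18 in both. Smarcc1 was among those in both lists. The deacetylase gene Hdac1 (144) and the H3K27 methyltransferase gene Ezh2 (48.3) were in control alone, and the remodeller gene Chd1 (371, 6 blocks) and the DNA methyltransferase gene Dnmt1 (164, 8 blocks, no control counterpart) in cKO alone. Among m6A genes 2 of 11 and 3 of 7 had one. Zc3h13, of the methyltransferase complex, had its best peaks at separate sites (322 and 238). The complex subunit Virma (60.1) and Hnrnpc (6.83) were in cKO alone, and Rbmx (9.66) in control alone. The Virma and Hnrnpc peaks were met by control coding peaks of 2 blocks (fold 163 and 40.7), and the Rbmx peak had no counterpart.

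Among genes of translation and protein handling, ribosomal proteins lay below the background and translation factors and coat proteins above it. Translation factors had 5 of 15 in control and 15 of 25 in cKO, all 5 control genes among the 15. Eif5b had 7 blocks at fold 156 in control and 8 at fold 158 in cKO, and Eif3j1 had 5 at fold 36.2 and 6 at fold 119, while Eif3h (79.4) and Eif4ebp1 (41.0), a repressor of cap-dependent translation, were in cKO alone. Aminoacyl-tRNA synthetases had 2 of 3 and 5 of 9, with Sars in both at separate sites (13.7 and 6.91), Nars (58.9) in control alone, where a cKO peak of the 5′ UTR class met it (57.8), and Gars (20.2) and Farsb (16.2) in cKO alone. Cytosolic ribosomal proteins had 1 of 11 and 3 of 20, with Rpl19 in both (3.05 and 18.6) and Rpl36 (7.93) and Rpl24 (7.89) in cKO alone. The Rpl24 peak was met by a control peak of 3 blocks (fold 18.9) that the authors listed under another gene, of a biotype other than protein-coding. Chaperones had 8 of 29 and 13 of 28, such as Hsp90aa1 in both (28.2 and 79.8), Dnajb9 (187) in control alone and Dnajc13 (51.9) in cKO alone. Proteasome subunits had 2 of 10 and 5 of 12 with no gene symbol in common: Psmd7 (358) and Psmd14 (44.3) in control, and Psma4 (52.6) and Psmd1 (36.8) among those in cKO. The Psmd1 peak was met by a control multi-junction peak of 3 blocks (fold 6.03) listed under Gm21972, so the gene name and not the site set it apart. Coat and secretory transport genes had 6 of 12 and 10 of 13, all 6 control genes among the 10. Sec63, a partner of Sec62, had 4 blocks in each list at fold 173 and 158, and the endocytic receptor gene Lrp1 (41.2) was in cKO alone. Enzymes of glycolysis and the citrate cycle had 0 of 6 and 1 of 10, the latter Pgam1 (79.6).

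Hippo pathway genes and YAP/TEAD targets carried multi-junction peaks in 9 of 17 cases in control (52.9%) and 9 of 16 in cKO (56.2%). Of these 6 were in both lists. Besides Lats2 (184 and 81.3) they included Wwc2 (132 and, elsewhere in the gene, 20.6), Amotl2 (11.7 and 17.4) and Nf2 (7.65 and 7.36). Taok3 (122) and Amot (13.3) were in control alone, and the kinase gene Stk4 (62.2) and the YAP target Ankrd1 (42.3) in cKO alone. TGF-beta and BMP genes carried few, with 2 of 15 (13.3%) and 1 of 12 (8.33%). The activin receptor gene Acvr2a (328) and the activin subunit gene Inhba (162) were the 2 in control, each met by a 1-block 3′ UTR peak in cKO (10.4 and 36.8), and Smad3 (10.7) was the 1 in cKO.

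**Figure D5:**
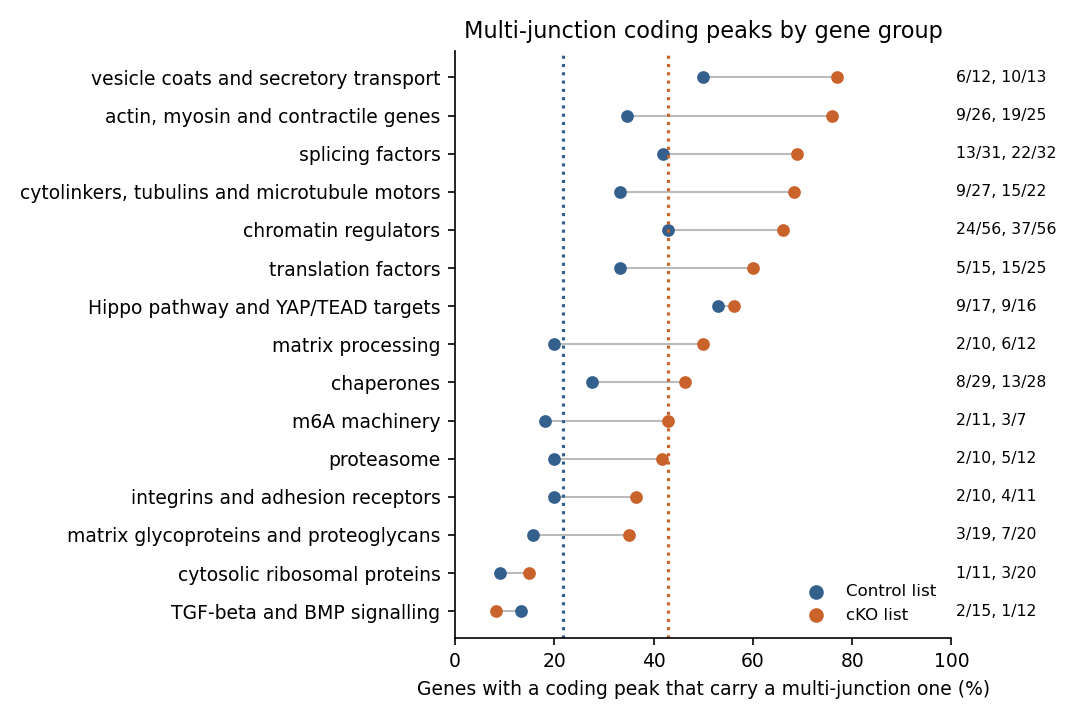
Share (%) of genes with a coding peak that carry a multi-junction one, by gene group, in the control and the cKO list, with the counts at the right (control, then cKO); dotted lines are the shares over all genes, 21.7% and 42.9%. Groups with fewer than 10 genes in control or 7 in cKO are left out, and only TGF-beta and BMP signalling, with 2 of 15 and 1 of 12, has the cKO point below the control point.

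Among markers of cell types, stellate genes had 2 of 6 and 2 of 5, namely Col3a1 in both, the PDGF receptor gene Pdgfra (423, no counterpart) in control and the desmin gene Des (8.09) in cKO. Of the endothelial markers, Pecam1 had one in each list (8.86 and 4.41, overlapping) of 2 genes with a coding peak. The bile duct marker Krt19 had one in cKO (11.4). No hepatocyte or macrophage marker had one.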

How the data were processed

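The deposited data were 1 m6A peak list per genotype. HISAT2, HOMER and mm10 are listed, without roles, in the submitters' processing notes. For the peak caller, its settings and how replicates were combined, the sources used here give nothing. Per the file headers, each peak has exon blocks, a p-value, its log10 (taken as a score, since it reaches large negative numbers), a fold enrichment (a ratio) and an annotation class. In the column of the log10 p-value 10 multi-junction control peaks and 26 cKO peaks hold a spreadsheet error and were ranked as smallest p. Starts were counted from 1. Peaks were intersected by exon blocks on the same strand, and junctions were matched by both gap ends. Percentiles are ranks of fold within a list. The overlap was tested on simulated data: of 200 control peaks whose copies kept all but the first block, 200 were found, and of 200 copies moved away, 0.

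With 1 list per genotype there is no replicate error and no test. Members, 24 gene groups and named genes were chosen with earlier results of these data known. Named genes are, per list, the 8 of highest fold and the 5 with most blocks or most peaks, the 6 best-ranked overlapping pairs, and up to 2 per gene group found in both lists, in control alone and in cKO alone. Some genes that the rule names are not reported here. Others, such as Arid5b, Rdx, Myh9, Amotl2 and Nf2, were named after their values were seen, as were the 4 printed sequences, chosen by availability. Alternatives changed the fold, p-value, block number, block length, overlap and junction rules. Computation used Python 3.11.15, pandas 2.3.3, numpy 2.4.6, scipy 1.17.1 and matplotlib 3.10.9.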

Additional observations from a re-analysis of the deposited data

How the results depend on the processing

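No paired analysis was possible because each list is a single call for a genotype and carries no value per replicate, so leaving out a replicate could not be run either. The share of coding peaks with 3 or more blocks stayed higher in cKO under every alternative run. It was 42.1% in cKO at fold 10 or more, 20.7% in control and 50.9% in cKO at a p-value of at most 1e-10, 4.92% and 15% with 4 or more blocks, and 13.9% and 32.9% when blocks had to reach 10 nt. The share with a counterpart stayed higher in control. Overlap is mutual and the cKO list held more multi-junction peaks, which partly fixes this order. The share was 62.8% and 41.2% for fold 10 or more, 43.1% in cKO for the p-value limit, and 79.9% and 61.6% with 4 or more blocks. It was 50.4% and 30.6% when 50% of both peaks had to be shared. When the counterpart had to be a multi-junction coding peak, it was 57.2% and 30.1%. Median fold became 30.4 and 28.2 at fold 10 or more, 41.5 and 34.4 at the p-value limit, and 29.2 and 26.1 with 4 or more blocks. Genes with such a peak became 378 in control at the p-value limit, and 203 in control, 470 in cKO and 133 in both with 4 or more blocks. The share of junctions found in the other list became 53.3% in control at fold 10 or more, 64.8% in control at the p-value limit, and 64.5% and 23.9% with 4 or more blocks. Merging overlapping peaks of a list into places, an alternative chosen after seeing the data, gave 70.5% and 46.4% with a counterpart. Counting identical rows once, outer spans, other biotypes and a junction tolerance of 5 nt left each share inside the interval of its main value. Depth is unknown, so how many weak peaks were missed in either list could not be assessed.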
